A study of Mus musculus with 163 samples.

Results

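The genes described here are the heat shock proteins and their co-chaperones. They were taken by symbol, as every gene of the expression table whose symbol begins with Hsp or Dnaj, together with *Bag1* to *Bag6*, the subunits *Cct2* to *Cct8* of the chaperonin ring and *Cryab*. This rule found 76 of 12187 genes. Among the named Cct subunits, *Cct6a* was not analysed here. The libraries are from single cells of the mediobasal hypothalamus, sorted by the GFP that marks Pomc-expressing cells in ad libitum fed male mice of 7 to 9 weeks of age and of strain C57/BL6 Tg(Pomc-EGFP)1Low, with 1 library per cell. No cell carries a label for its animal or plate, so all cells together count as 1 sample, and no SE, p-value or test between cells is given. GFP under *Pomc* regulatory sequences can mark cells that make little *Pomc* when they are sorted. Levels are log2RPM, which are reads per M reads on a log2 scale with a small floor added, and a cell listed at -0.91 had 0 reads.

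Cells were split by their own levels of *Agrp* and *Pomc*, the genes of the peptides that drive and restrain feeding. 48 cells with *Agrp* at or above 10 log2RPM are called Agrp-high. Of the cells below that limit, 34 with *Pomc* at or above 12 log2RPM are called Pomc-high and 81 are called Pomc-lower. The values next to the limits were 10.12 and 9.99 for *Agrp* and 12.20 and 11.91 for *Pomc*. The shallowest cell had 1.46 M reads, the deepest 41.9 M, and the median depth was 8.10 M. The labels call all cells neurons, and the synapse gene *Snap25* was at or above 6 log2RPM in all but 1 of them. A group of 8 cells, described with *Hspa1a*, stood apart in several measures and went against the neuron label in part, and values without them are given beside the differences and spreads that they move. The oligodendrocyte, oligodendrocyte precursor, astrocyte, tanycyte and pituitary lists were measured only in part, and no listed marker of microglia or of endothelial cells was measured. In 4 cells at least 3 markers of 1 non-neuronal list reached 6 log2RPM. Only the oligodendrocyte and pituitary lists had 3 or more measured markers, and no cell had more than 2 pituitary ones at that level. Cells with markers of the other lists could therefore not be counted in this way.

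Chaperones bind proteins that are not yet folded or have lost their fold. HSP70 proteins (Hspa genes) hold short exposed stretches and release them by using ATP, and J-domain proteins (Dnaj genes) bring clients to HSP70 and start its ATP use. BAG proteins and HSP110 (*Hsph1*) exchange the nucleotide of HSP70, HSP90 proteins finish the folding of receptors and kinases, small heat shock proteins (Hspb genes, *Cryab*) hold unfolded proteins without ATP, and the CCT ring encloses actin and tubulin. Heat shock factor 1 switches on a subset of these genes in stressed cells, by binding inverted repeats of the letters GAA, and unfolded protein in the endoplasmic reticulum (ER) switches on another subset. Other members are made all the time. Hypothalamic peptide neurons fold and export large amounts of prohormone, a task of the ER chaperones.

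From such general knowledge the members were put into 5 lists. The heat-inducible list has 12 members, the ER list 8, the constant cytosolic list 18, the mitochondrial list 7, and the remaining members number 31. These cells were not given a heat or drug stress by design, and the list names describe the genes, not what happened in the cells. Tissue was, however, digested with an enzyme and cells were sorted before lysis.

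Promoter letters are shown because the heat shock and ER stress responses are named after short elements found there. For 62 of the 76 members a window from 250 bases before to 50 bases after a start site was held in RefSeq, build GRCm38.p6. Not matched were *Bag4*, *Cct4*, *Cryab*, *Dnajc2*, *Dnajc5*, *Dnajc11*, *Dnajc12*, *Dnajc18*, *Dnajc30*, *Hsp90aa1*, *Hsp90ab1*, *Hspa8*, *Hspa9* and *Hspa13*. A heat shock element pair (GAANNTTC or TTCNNGAA, which are inverted repeats and so read the same way on both strands) was in 15.1% of all 32851 such windows and in at least 1 window of 17% of 27025 genes. A triple of the same unit, which contains pairs by its letters, was in 0.603% of windows and 0.662% of genes. At least 1 window held the pair for 8 of the 10 matched heat-inducible members, for 3 of 14 constant cytosolic members (*Cct2*, *Cct5* and *Dnajb6*), for 1 of 7 ER members (*Dnajc10*) for 2 of 5 mitochondrial members (*Hspd1* and *Hspe1*) and for 3 of 26 remaining members (*Dnaja4*, *Dnajc27* and *Hspb6*). The triple was held for *Hsph1*, *Dnajb6*, *Hspd1* and *Hspe1*. The ER stress element (CCAAT, any 9 bases and CCACG, on either strand) was in 0.119% of windows and 0.137% of genes. It was held by 3 of the 7 matched ER members, *Hspa5*, *Hsp90b1* and *Dnajc3*, and by no matched member of the other lists. A match is a run of letters and not a measured binding site.

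The 250 bases before the start, or the stretch shared by a pair of genes, are printed on the gene's own strand for the members that the results turn on. Capitals mark the heat shock element pairs and, in *Hspa5*, the ER stress element. *Hspa1a* (chr17:34972157-34972406, minus strand) encodes the inducible cytosolic HSP70, and *Hspb1* (chr5:135887669-135887918, plus strand) the small heat shock protein HSP25. *Hspd1* and *Hspe1*, the mitochondrial chaperonin and its lid, are read in opposite directions from one stretch (chr1:55087933-55088147, printed on the plus strand). *Hspa5* (chr2:34771840-34772089, plus strand) encodes the ER HSP70 known as BiP. *Dnajb1* (chr8:83607925-83608174, plus strand) encodes the J-domain partner of inducible HSP70 and had no match in either of its windows.
Hspa1a: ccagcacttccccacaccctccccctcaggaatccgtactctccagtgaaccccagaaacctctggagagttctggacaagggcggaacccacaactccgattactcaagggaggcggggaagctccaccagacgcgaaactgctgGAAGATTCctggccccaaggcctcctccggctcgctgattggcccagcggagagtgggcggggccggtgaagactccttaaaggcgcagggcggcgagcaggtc
Hspb1: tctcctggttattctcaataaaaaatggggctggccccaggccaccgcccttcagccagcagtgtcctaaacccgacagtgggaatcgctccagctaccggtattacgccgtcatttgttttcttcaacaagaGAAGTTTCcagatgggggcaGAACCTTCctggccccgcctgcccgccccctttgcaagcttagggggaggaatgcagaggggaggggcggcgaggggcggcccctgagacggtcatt
Hspd1-Hspe1: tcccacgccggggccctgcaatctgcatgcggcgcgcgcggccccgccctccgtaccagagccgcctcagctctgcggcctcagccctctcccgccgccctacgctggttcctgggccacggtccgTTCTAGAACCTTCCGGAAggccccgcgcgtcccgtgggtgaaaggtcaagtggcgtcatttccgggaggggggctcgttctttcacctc
Hspa5: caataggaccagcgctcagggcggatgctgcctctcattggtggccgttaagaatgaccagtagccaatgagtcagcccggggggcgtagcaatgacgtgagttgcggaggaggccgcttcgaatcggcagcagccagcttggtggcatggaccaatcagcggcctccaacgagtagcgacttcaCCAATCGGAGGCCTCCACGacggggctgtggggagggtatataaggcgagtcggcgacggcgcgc
Dnajb1: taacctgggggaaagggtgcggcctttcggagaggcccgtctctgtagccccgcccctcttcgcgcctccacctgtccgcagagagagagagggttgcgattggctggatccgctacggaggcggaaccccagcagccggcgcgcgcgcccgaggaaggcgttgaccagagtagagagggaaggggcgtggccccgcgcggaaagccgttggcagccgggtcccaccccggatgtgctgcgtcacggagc
The *Hspa1a* window holds 1 pair and the *Hspb1* window holds 2. In the *Hspd1*-Hspe1 stretch 3 overlapping pairs make a run of 4 units. The promoters of *Hspa1a* and of its neighbour *Hspa1b* had the same base at 247 of 250 positions.

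Of the heat-inducible list, *Hspa1a*, *Hspa1b*, *Hspb1* and *Dnajb1* were very high in a few cells, while *Hsp90aa1*, *Dnaja1* and *Hsph1* were found in every cell with SDs of 0.46, 0.71 and 0.90. The distance from a gene's median to its highest cell had a list median of 7.47 log2 units for the heat-inducible list, 1.75 for the constant cytosolic list, 2.51 for the ER list and 2.65 for the mitochondrial list, beside 4.71 for all genes. Without the 8 cells that stood apart these distances were 3.39, 1.5, 2.28 and 2.14, beside 4.40 for all genes, so the heat-inducible list no longer exceeded all genes. The SD over all cells had a list median of 2.38 log2 units for the heat-inducible list, 1.95 for the ER list, 1.33 for the mitochondrial list and 1.25 for the constant cytosolic list, beside 2.23 for all genes. With those cells left out these list medians were 2.07, 1.82, 1.27 and 1.07. SD depends on the mean level, since genes near the floor switch between found and not found. Among members with a mean of at least 5 log2RPM, the list medians were 1.15 for the heat-inducible and 1.10 for the constant cytosolic list. The SD hardly parted the lists at that level, where 3376 genes had a median of 1.62. That level kept 6 of 12 heat-inducible and 16 of 18 constant cytosolic members. From the heat-inducible list it left out *Hspa1a*, *Hspa1b*, *Hspb1*, *Hspb8*, *Bag3* and *Cryab*.

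**Figure D1:**
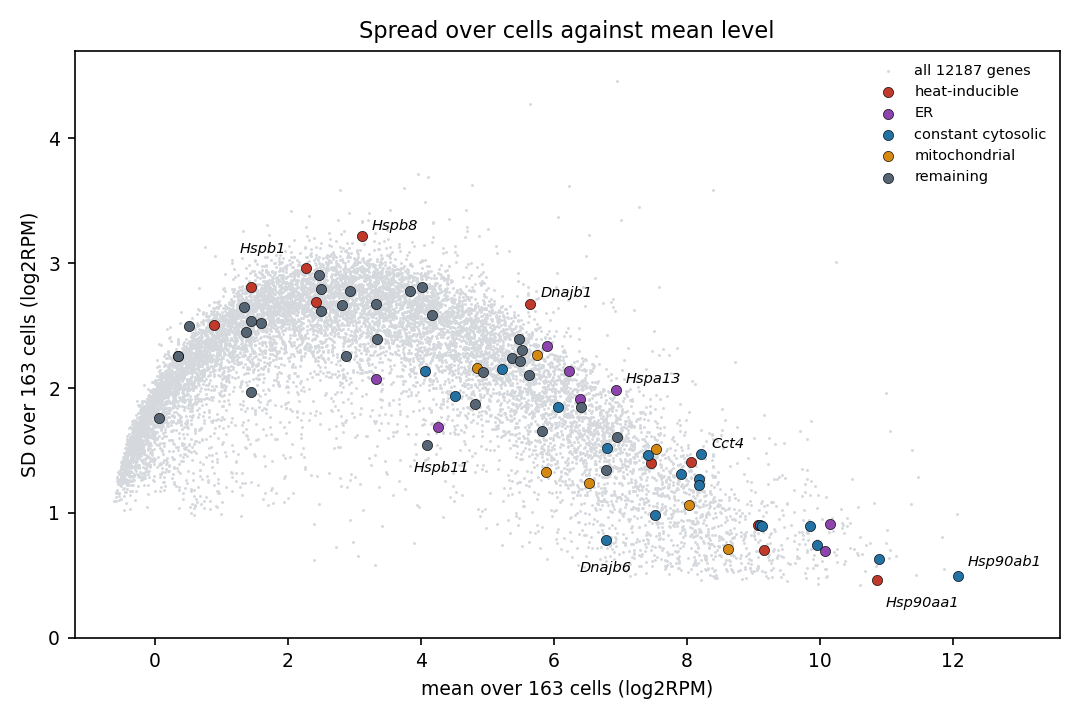
SD over all cells (log2RPM, vertical axis) against mean over the same cells (log2RPM, horizontal axis), with 1 small grey point per gene and 1 coloured point per chaperone or co-chaperone, coloured by list. *Hspb8* and *Dnajb1* lie above the band of genes of like mean, and the HSP90 genes sit at the lower right with an SD of 0.46 for *Hsp90aa1* and 0.49 for *Hsp90ab1*.

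The steadiest members at a mean of at least 5 log2RPM were *Hsp90aa1* with an SD of 0.46, *Hsp90ab1* with 0.49, *Hspa8* with 0.63, *Hsp90b1* with 0.70, *Dnaja1* with 0.71 and *Hspe1* with 0.71. They encode the cytosolic HSP90 pair, the constant HSP70, the ER HSP90, a J-domain partner and the lid of the mitochondrial chaperonin. *Hsp90aa1* and *Dnaja1* are on the heat-inducible list, so that list holds steady members as well as spread ones. The members with the largest SD at that mean were *Dnajb1* (2.67), *Bag5* (2.40), *Dnajb11* (2.33), *Dnajc9* (2.30), *Dnaja3* (2.26) and *Bag4* (2.24).

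An SD at least 0.5 above the median of genes of like mean was called variable, which 2.0% of all genes were. Only *Dnajb1* and *Hspb8* among the 76 members passed that limit. *Dnajb1* had an SD of 2.67 where genes of like mean had a median of 2.04, and 2.21 without the 8 cells, and *Hspb8*, a small heat shock protein gene, had 3.22 beside 2.70.

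At 5 RPM or more, 15 members were found in all cells, where 5.41% of all genes were. 34 members were found in at least 90% of cells, beside 22.2% of all genes, and 15 in under 50% of cells, beside 44% of all genes. In the constant cytosolic list 8 of 18 members were found in all cells and none in under 50%. In the heat-inducible list *Hsp90aa1*, *Hsph1* and *Dnaja1* were found in all cells, while 5 of the 12 were in under 50%. Those were *Hspb8* in 49.1% of cells (95% Clopper-Pearson interval 41.2 to 57%), *Hspb1* in 47.9% (40 to 55.8%), *Hspa1b* in 31.3% (24.3 to 39%), *Bag3* in 22.1% (16 to 29.2%) and *Cryab* in 9.20% (5.24 to 14.7%). *Hspa1a* was found in 50.9% (43 to 58.8%). The intervals cover counting of cells only.

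The 8 constant cytosolic members found in every cell were *Hspa8*, *Hsp90ab1*, *Dnajb6*, *Dnajc8*, *Cct3*, *Cct5*, *Cct7* and *Cct8*. *Dnajb6*, a J-domain gene whose product holds back protein clumping, was between 2.45 and 8.12 log2RPM. Its SD was 0.78, beside a median of 1.56 for genes of like mean. Its promoter window holds a heat shock element pair, and a link between such matches and spread was not tested. The other members of the list ranged down to *Bag6*, found in 78.5% of cells. *Dnajc5*, the cysteine string protein of synaptic vesicles, was found in 96.9%.

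In the ER list *Hspa5* and *Hsp90b1* were found in every cell. *Hspa5* ran from 5.20 to 12.91 log2RPM with a median of 10.16, and *Hsp90b1* from 7.22 to 11.82 with a median of 10.10. Their co-chaperones were found less widely, with *Dnajc3* in 93.3% of cells, *Dnajc10* in 91.4%, *Dnajb11* in 87.7%, *Dnajb9* in 86.5% and *Dnajc1* in 62.6%, and *Hspa13* in 94.5%. In the mitochondrial list *Hspd1* and *Hspe1* were found in every cell. *Hspa9*, the mitochondrial HSP70, was found in 98.2%, the import-motor genes *Dnajc19* and *Dnajc15* in 97.5% each, *Dnaja3* in 88.3% and *Dnajc11* in 82.8%.

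Of the 31 remaining members, 4 were found in at least 90% of cells. These were *Dnajb14* (98.8%), the HSP70 exchange factor gene *Hspbp1* (95.7%), *Dnajc6* (93.3%), which encodes the clathrin uncoating factor auxilin, and *Dnajc12* (92%). The 10 found in under 50% were *Dnajc14* (49.7%), *Dnajc28* (45.4%), *Dnajb3* (38%), *Dnajb5* (36.2%), *Dnajc16* (34.4%), *Dnajc25* (30.1%), *Hspb6* (27.6%), *Hspa2* (16.6%), *Hspbap1* (15.3%) and *Hspa12b* (12.3%). The table gives *Dnajb3* a merged position that spans other genes, so its value may hold their reads. The others, among them *Bag2*, *Bag4*, *Bag5*, *Dnaja4*, *Dnajc2*, *Dnajc9*, *Dnajc21*, *Hspa12a* and *Hspb11*, were found in 52.1 to 87.7% of cells.

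*Hspa1a* divided the cells sharply. In 8 cells it was at or above 8 log2RPM, and these were chosen after the values were seen. Its levels there were 9.90 in Cell_101, 8.60 in Cell_109, 11.17 in Cell_110, 13.07 in Cell_146, 9.17 in Cell_150, 9.33 in Cell_155, 10.70 in Cell_157 and 9.72 in Cell_161. In the other cells it lay between -0.91 and 6.79, with a median of 2.27. Because *Hspa1a* chose the cells, the gap in *Hspa1a* is a description. By set, 5 of the 8 were Pomc-high, 3 were Pomc-lower and none of the 48 Agrp-high cells was among them. All 8 carry cell numbers from 99 up, and none of the 98 cells with lower numbers was among them. The labels do not say what the numbers stand for.

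*Dnajb1*, the HSP70 partner, stood apart in 7 of the same 8 cells. It was at 11.07 in Cell_101, 10.69 in Cell_109, 14.51 in Cell_110, 14.75 in Cell_146, 13.75 in Cell_150, 4.94 in Cell_155, 11.92 in Cell_157 and 14.11 in Cell_161. No other cell exceeded 8.33, and the others had a median of 6.06. The exception, Cell_155, was thus high in *Hspa1a* but below that median in *Dnajb1*.

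*Hspb1* also lay above all other cells in 7 of the 8, with a different exception. Its levels were 9.10 in Cell_101, 11.54 in Cell_109, 3.66 in Cell_110, 13.94 in Cell_146, 8.09 in Cell_150, 10.14 in Cell_155, 10.39 in Cell_157 and 11.49 in Cell_161. The other cells reached 7.36 at most. The exception was Cell_110, which was among the highest in *Dnajb1*.

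*Hspa1b*, the neighbouring copy of *Hspa1a*, exceeded all other cells in 6 of the 8. It was at 10.81 in Cell_101, 1.37 in Cell_109, 11.90 in Cell_110, 12.66 in Cell_146, 5.65 in Cell_150, 9.58 in Cell_155, 10.18 in Cell_157 and 11.31 in Cell_161, and at most 6.92 elsewhere. These copies cannot be fully separated by 50-base reads, since 66.3% of the 50-base windows of the *Hspa1a* transcript and 62.3% of those of *Hspa1b* occur also in the transcript of another gene. Their values are therefore not independent. For *Hspb1* the share was 51.6%, with the pseudogene *Hsp25-ps1* holding all of those windows, and for *Dnajb1* it did not pass 10%.

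**Figure D2:**
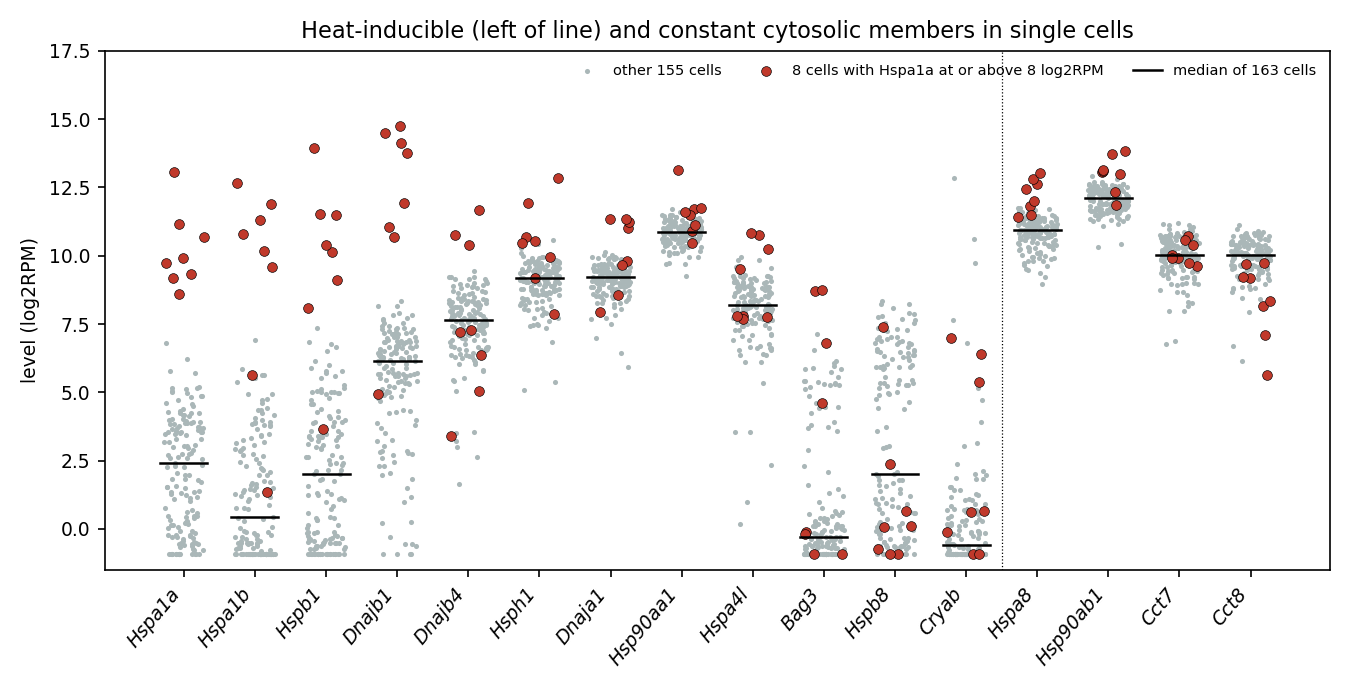
Levels (log2RPM, vertical axis) of the 12 heat-inducible members and of 4 constant cytosolic members in single cells, with 1 point per cell, the 8 cells with *Hspa1a* at or above 8 log2RPM in red and a bar at the median of all cells. Red points lie far above the grey ones for *Hspa1a*, *Hspa1b*, *Hspb1* and *Dnajb1*, and near the top for *Hspa8* and *Hsp90ab1*, but within or below the grey ones for *Cct7* and *Cct8*.

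To see how far the other members shared these cells, each gene's own 8 highest cells were listed and the number of the Hspa1a-high cells among them was counted. At least 4 of the 8 were shared by 5.25% of all 12187 genes, or 640 genes. Apart from *Hspa1a* itself, 15 of 75 members reached that number, which is 20%. By list they were 6 of 11 heat-inducible, 1 of 8 ER, 2 of 18 constant cytosolic, 2 of 7 mitochondrial and 4 of 31 remaining members. The 6 include *Hspa1b*, whose values are not independent of those of *Hspa1a*, which chose the cells. The count was 0 for 21 members.

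**Figure D3:**
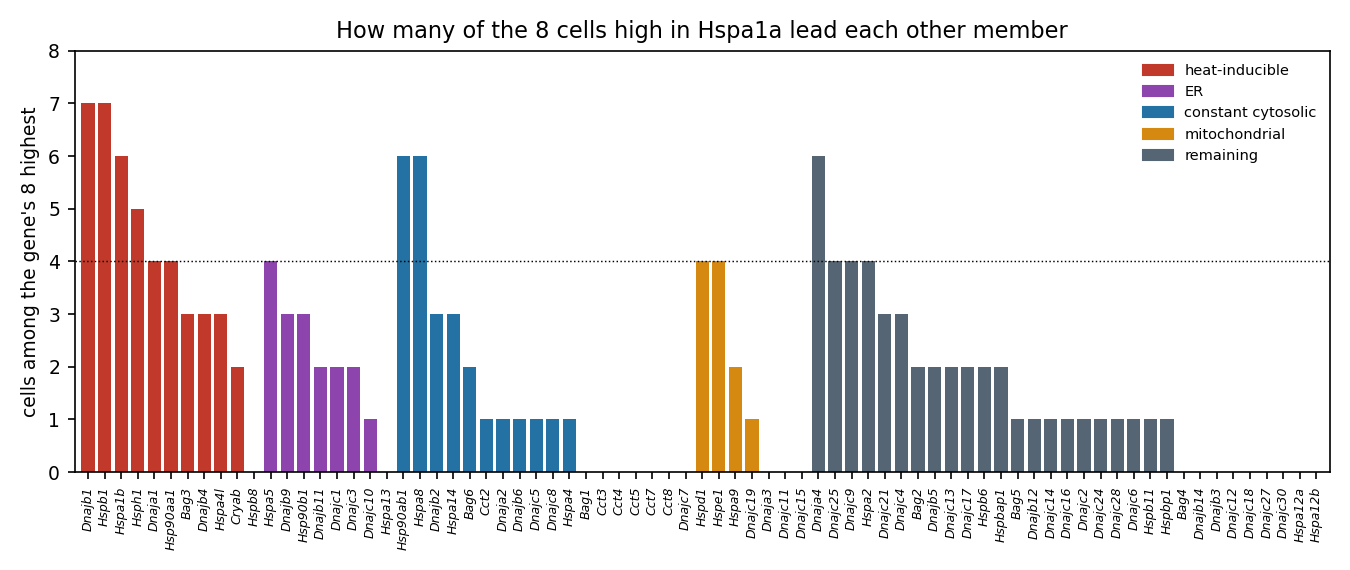
Number of the 8 Hspa1a-high cells that were among each gene's own 8 highest cells (vertical axis), with 1 bar per chaperone or co-chaperone other than *Hspa1a*, coloured and grouped by list, and a dotted line at 4. *Dnajb1* and *Hspb1* reach 7, *Hsp90ab1*, *Hspa8*, *Hspa1b* and *Dnaja4* reach 6, and *Cct3*, *Cct4*, *Cct5*, *Cct7*, *Cct8* and *Hspb8* are at 0.

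Within the heat-inducible list the counts were 7 for *Dnajb1* and *Hspb1*, 6 for *Hspa1b*, 5 for *Hsph1*, 4 for *Dnaja1* and *Hsp90aa1*, 3 for *Dnajb4*, *Hspa4l* and *Bag3*, 2 for *Cryab* and 0 for *Hspb8*. *Hsph1*, the HSP110 exchange factor, was at 7.85 to 12.86 in the 8 cells and at most 10.59 in the others. *Dnajb4* was split among them, with 11.69, 10.74 and 10.39 in Cell_110, Cell_146 and Cell_150, above every other cell, and 3.40 to 7.27 in the remaining 5. *Bag3*, a co-chaperone that links HSP70 to autophagy, was at 8.70 in Cell_110, 8.74 in Cell_155 and 6.79 in Cell_150, but at or near the floor in 4 of the 8.

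The 2 constant cytosolic members that shared these cells were *Hspa8* and *Hsp90ab1*, the constant HSP70 and HSP90 genes of the cytosol. *Hspa8* was at 12.44 in Cell_101, 12.62 in Cell_109, 12.80 in Cell_110, 13.02 in Cell_146, 11.80 in Cell_150, 11.41 in Cell_155, 11.49 in Cell_157 and 12.01 in Cell_161. The other cells lay between 8.95 and 11.75, so 6 of the 8 exceeded them all and the ranges overlapped for Cell_155 and Cell_157. *Hsp90ab1* exceeded all other cells in 6 of the 8 as well, at 11.86 to 13.83 beside at most 12.93. Both thus had their highest cells where *Hspa1a* was high, although they are on the constant list. Of the *Hspa8* windows 52.7% occur in other transcripts.

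Among the other lists, *Hspd1* and *Hspe1* each shared 4 of the cells. *Hspe1* was at 11.83 in Cell_110, 11.35 in Cell_146, 10.50 in Cell_157 and 11.33 in Cell_161, above the 9.70 that no other cell exceeded, and at 8.74 to 8.84 in the other 4, close to the median of 8.62. *Hspd1*, of which 44.8% of windows occur elsewhere, reached 10.87 in Cell_146 and 10.15 in Cell_110, with 9.79 in Cell_157, beside at most 9.40 outside the 8. The table gives both genes the merged position chr1:55077834-55091307 (GRCm38), so reads near their shared start may not be told apart. *Dnaja4*, a J-domain gene left in the remaining list, was above all other cells in 6 of the 8, at 8.73 to 10.33 beside at most 7.08, and at 1.07 and 1.31 in Cell_101 and Cell_150. Of its windows 51.9% occur also in the overlapping gene *Wdr61*. *Hspa2*, *Dnajc9* and *Dnajc25* shared 4 each.

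*Hspa5* of the ER list shared 4 of the cells, but only Cell_150, at 12.91, exceeded the 12.37 reached elsewhere, and all 8 were at or above 10.81 where the other cells had a median of 10.08. *Hsp90b1* shared 3 and *Hspa13*, an ER and microsome HSP70 relative, shared none. Over the 8 ER members the counts ran from 0 to 4.

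Of 36 other genes of folding and stress pathways that are no members, 7 shared at least 4 of the cells. *Atf4* and *Ddit3*, transcription factors of the stress response to misfolded protein and amino acid lack, shared 6 each, the ER enzyme gene *P4hb* shared 5, and *Calr*, *Pdia4*, *Fkbp5* and *Hmox1* shared 4 each. *Hsf1* shared 1, and *Stip1*, *Ahsa1*, *Cdc37*, *Ptges3* and *Fkbp4*, which encode helpers of HSP90, shared 2 each. Of other genes of HSP90 helpers, *Fkbp5* is among the 7 above, *Chordc1* and *Unc45a* shared 3 each and *Ahsa2* shared 0. For all 13 measured immediate early genes, which neurons and other cells switch on within minutes of a stimulus, at least 5 of the 8 were shared. *Egr1*, *Junb*, *Nr4a1* and *Btg2* were higher in each of the 8 than in any other cell, with *Egr1* at 10.91 to 13.10 beside at most 8.64 and *Btg2* at 11.57 to 13.77 beside at most 8.41. *Fos* was at 6.55 to 12.47 in the 8 and up to 10.78 in the others.

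Other measures moved with these cells. They had 4603 to 5984 genes at 5 RPM or more, where the other cells had 4648 to 8589 with a median of 7146, and 2.71 to 21.3 M reads, which lies inside the range of the others. Of the neuronal markers, *Elavl4* was at 1.25 to 4.79 in the 8 and had a median of 8.41 in the others, *Stmn2* was at 2.37 to 8.01 beside a median of 9.44, *Rbfox3* was at most 1.06 beside a median of 4.93, and *Tubb3* was at 2.06 to 7.98 beside a median of 8.81. *Snap25* was at 9.48 to 11.5, around the median of 10.33 in the others. *Syt1* and *Map2* were at or above 6 log2RPM in 6 of the 8 each. Their medians in the 8 were 7.01 and 7.47, beside 7.22 and 8.56 in the others. Of 7 listed pituitary endocrine markers 3 were measured. *Tbx19*, the corticotroph factor, was at or above 6 log2RPM in 5 of the 8 and in 3 other cells, *Prl* in 3 of the 8 and in 8 others, and *Pou1f1* in 2 of the 8 and in 1 other. Every one of the 8 cells had at least 1 of these markers at that level. The summed level of the 3 was 218 to 17698 RPM in the 8 and 1.73 to 874 RPM in the others. The part of cell type and of RNA quality in the chaperone values of the 8 cells was not tested, and the cells are named here only by their *Hspa1a* level.

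Over all cells the 7 heat-inducible members with a mean of at least 3 log2RPM were only weakly ordered together. That limit left out *Hspa1a*, *Hspa1b*, *Hspb1*, *Bag3* and *Cryab*. Spearman's rho is given across cells as a description, and cells share the scaling and the depth of their libraries. The median over 21 pairs of heat-inducible members with a mean of at least 3 log2RPM was 0.11, and over all pairs of constant cytosolic members it was 0.13. *Hspa1a* and *Hspa1b* had a rho of 0.34, and 0.25 without the 8 cells, and *Hspa1a* with *Dnajb1* had 0.16, and 0.06 without them. Some pairs that were found in every cell gave larger values, with 0.70 for *Hsp90aa1* and *Hsp90ab1* and 0.59 for *Hspa8* and *Hspd1*. *Hspa5* and *Hsp90b1*, both of which carry the ER stress element, had 0.55. *Hspa8*, a cytosolic gene with no matched promoter window, had 0.52 with *Hspa5*. Without the 8 cells these values were 0.54 and 0.46, and within the 48 Agrp-high cells they were 0.34 and 0.48. A link between the element and rho was not tested. *Hspd1* and *Hspe1*, also found in every cell and read from one stretch, had 0.22, and 0.16 without the 8 cells.

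The genes outside the rule whose level followed the mean of the heat-inducible list most closely were *Junb* with a rho of 0.48, *Btg2* with 0.47, *Gnb3* with 0.46, *Rbms1* with 0.45, *Zfp36* with 0.45 and *Gm20481* with 0.45, over all cells. Without the 8 cells these values were between 0.36 and 0.40.

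The CCT subunits, which work as one ring, were ordered together more closely than the lists above. Of the 7 subunits on the list, 6 were measured, namely *Cct2*, *Cct3*, *Cct4*, *Cct5*, *Cct7* and *Cct8*, and a further subunit gene of the ring, *Tcp1*, is on the list of other pathway genes. The median rho over their 15 pairs was 0.46, and 0.47 without the 8 cells. Each was found in at least 98.2% of cells. The median of their mean levels was 9.11 log2RPM, beside 8.05 for the constant cytosolic list, which includes them. Whether other genes of like level are ordered as closely was not tested. The SD of the 6 subunits was between 0.74 for *Cct7* and 1.47 for *Cct4*. None had more than 1 of the 8 Hspa1a-high cells among its 8 highest. *Cct8* was at 10.19 ± 0.45 log2RPM (SD over 48 cells) in Agrp-high, 9.74 ± 1.10 (34 cells) in Pomc-high and 9.71 ± 0.95 (81 cells) in Pomc-lower cells. All 6 subunits had a higher mean in Agrp-high than in either other set, by 0.22 to 0.62 log2 units over Pomc-high and by 0.24 to 0.56 over Pomc-lower cells. The median over all genes was 0.20 and 0.17 in the same direction, and none of the 6 reached 1. Without the 8 Hspa1a-high cells the subunits were higher by 0.16 to 0.36 over Pomc-high cells, beside 0.11 for all genes, and by 0.23 to 0.52 over Pomc-lower cells. Within cells 67 to 98 *Cct3* had the other sign against Pomc-high cells, at -0.25.

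Between the sets of cells a difference of means of at least 1 log2 unit was called. Agrp-high cells exceeded Pomc-high cells by that much in 8 of the 76 members, where 12.8% of all genes did, and were lower in 4, where 4.46% were. Against Pomc-lower cells Agrp-high cells were higher in 4 members, beside 9.08% of all genes, and lower in 1, beside 3.33%. Pomc-high cells were higher than Pomc-lower cells in 5 members, beside 4.50%, and lower in 3, beside 5.10%. These shares are near those of all genes. Without the 8 Hspa1a-high cells the counts were, in the same order, 6, 1, 5, 1, 5 and 3 of the 76 members. Over all 12187 genes they were then 1262, 640, 1085, 422, 706 and 509. Both sets set against Pomc-lower cells share those cells, and the 3 comparisons are not independent. Of the 36 other pathway genes, 2 were called in all, *Fkbp5* and *Hmox1*, both higher in Pomc-high than in Pomc-lower cells, by 1.42 and 1.29. Without the 8 cells these were 1.17 and 0.93, both genes were called higher in Agrp-high than in Pomc-lower cells, by 1.04 and 1.22, and *Sgta* was called higher in Agrp-high than in Pomc-high cells, by 1.01.

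*Hspb8* gave the largest difference. It encodes a small heat shock protein that works with *Bag3* in clearing misfolded protein by autophagy. In Agrp-high cells it ran from -0.91 to 8.34 log2RPM with a median of 6.46, and its mean was 5.65 ± 2.50 (SD, 48 cells). In Pomc-high cells it ran from -0.91 to 8.22 with a median of 2.17 and a mean of 2.88 ± 3.27 (34 cells), and in Pomc-lower cells from -0.91 to 7.40 with a median of 0.84 and a mean of 1.7 ± 2.64 (81 cells). The ranges overlapped fully, and the sets differed in how many cells had the gene. It was found at 5 RPM or more in 85.4% of Agrp-high cells (95% interval 72.2 to 93.9%), in 50.0% of Pomc-high cells (32.4 to 67.6%) and in 27.2% of Pomc-lower cells (17.9 to 38.2%). With each cell thinned to 4 M reads, which left out 20 shallower cells, of which 4 were Agrp-high, 4 Pomc-high and 12 Pomc-lower, the shares were 84.1%, 53.3% and 23.2%.

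The *Hspb8* difference was 2.77 log2 units between Agrp-high and Pomc-high cells and 3.95 between Agrp-high and Pomc-lower cells. Split by cell number into cells 1 to 66, 67 to 98 and from 99 up, it was 1.79, 4.09 and 3.62 against Pomc-high and 3.05, 5.04 and 5.0 against Pomc-lower cells, so it had the same sign in each range. None of the 8 Hspa1a-high cells was among the 8 highest for *Hspb8*, and without them the differences were 2.25 and 4.0.

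*Bag3* had the same order at lower levels. Its mean was 2.24 ± 2.72 in Agrp-high, 0.89 ± 2.83 in Pomc-high and 0.09 ± 1.82 in Pomc-lower cells, with medians of 1.53, -0.23 and -0.52. It was found in 45.8% of Agrp-high cells (31.4 to 60.8%), in 20.6% of Pomc-high cells (8.70 to 37.9%) and in 8.64% of Pomc-lower cells (3.55 to 17%). Agrp-high cells were higher by 1.35 than Pomc-high and by 2.15 than Pomc-lower cells, with 2.2, 1.01 and 2.07 against Pomc-high and 1.65, 1.68 and 3.60 against Pomc-lower cells in the 3 ranges of cell numbers. Without the 8 cells the differences were 1.92 and 2.22. The highest single cells, at 8.74 and 8.70, were Hspa1a-high cells of the Pomc-high set. Though both genes were higher in the same set, their levels were not closely ordered from cell to cell, with a rho of 0.24 over all cells and 0.02 within the 48 Agrp-high cells.

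**Figure D4:**
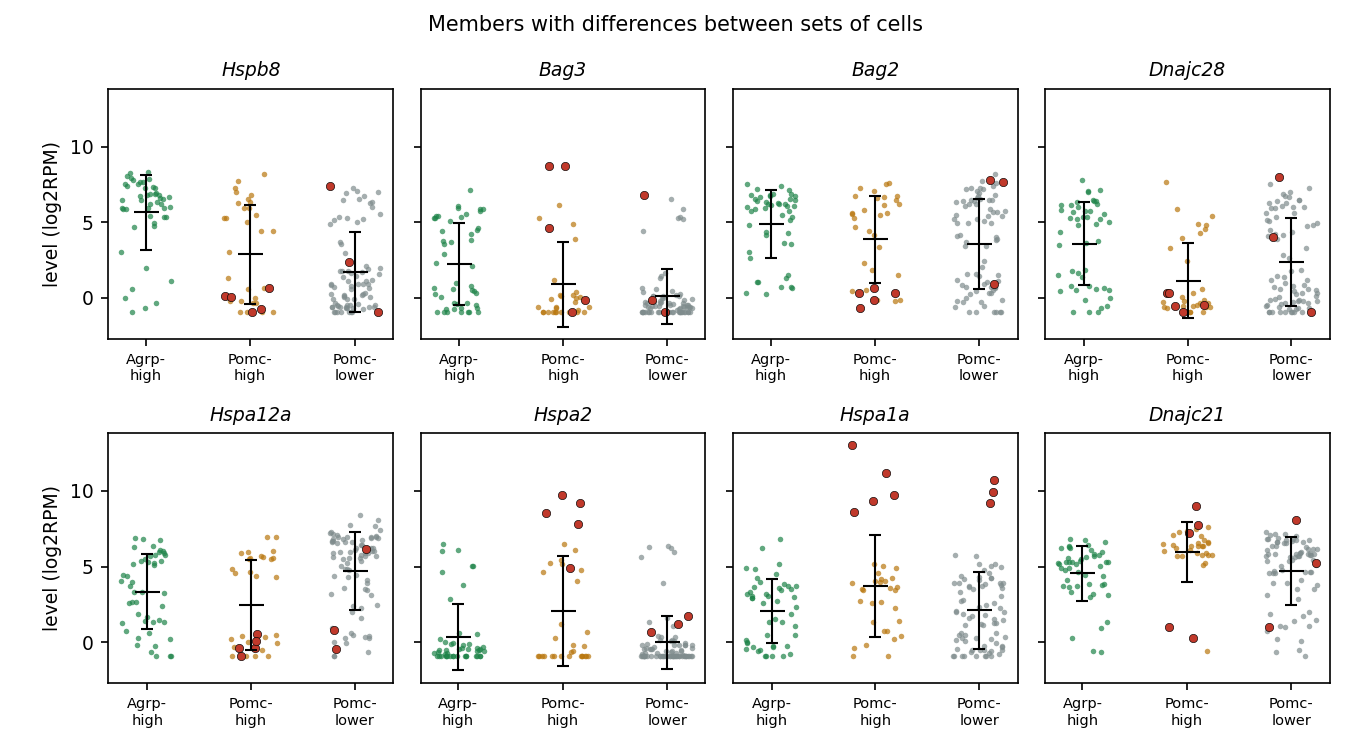
Levels (log2RPM, vertical axes) of 8 members in Agrp-high (48 cells), Pomc-high (34 cells) and Pomc-lower cells (81 cells), with 1 point per cell, red points for the 8 Hspa1a-high cells, a horizontal mark at the mean and bars of 1 SD over cells. *Hspb8* and *Bag3* have most of their high cells in the Agrp-high set, *Hspa12a* has more in the Pomc-lower set, and the highest *Hspa2* and *Hspa1a* cells are red.

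Other co-chaperones with called differences in favour of Agrp-high cells were *Dnajc28*, a little-studied J-domain gene, which was higher by 2.45 than in Pomc-high and by 1.24 than in Pomc-lower cells, and *Bag2*, which encodes an inhibitor of the ubiquitin ligase that pairs with HSP70, higher by 1.04 and 1.35. The *Dnajc28* difference from Pomc-high cells was 2.03, 0.16 and 4.24 in the 3 ranges of cell numbers. *Bag2* was found in 81.3% of Agrp-high cells (67.4 to 91.1%), 61.8% of Pomc-high (43.6 to 77.8%) and 58% of Pomc-lower cells (46.5 to 68.9%). Without the 8 Hspa1a-high cells the *Bag2* difference from Pomc-high cells was 0.39. The mitochondrial J-domain genes *Dnajc11*, *Dnajc30* and *Dnaja3* were higher in Agrp-high than in Pomc-high cells by 1.31, 1.21 and 1.13, and by 1.15, 0.84 and 0.86 without the 8 cells. *Dnajc16* was higher by 1.02, and by 1.24 without them. *Dnaja4* was then also called higher in Agrp-high than in Pomc-high cells, by 1.04, and *Dnajc9* higher than in Pomc-lower cells, by 1.01.

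*Hspa12a*, a distant relative of HSP70, showed the largest difference in favour of Pomc-lower cells. Its mean was 4.71 ± 2.57 in Pomc-lower, 3.34 ± 2.47 in Agrp-high and 2.45 ± 2.99 in Pomc-high cells, and it was found in 79% (68.5 to 87.3%), 64.6% (49.5 to 77.8%) and 47.1% (29.8 to 64.9%) of them. Pomc-high cells were lower than Pomc-lower cells by -2.26 log2 units, with -2.23, -3.42 and -1.63 in the 3 ranges of cell numbers. Agrp-high cells were at -1.37 from Pomc-lower cells over all ranges, but at -0.02 within the cells numbered from 99 up. *Dnajc28* (-1.21) and the ER co-chaperone gene *Dnajb11* (-1.05) were the other members lower in Pomc-high than in Pomc-lower cells. Without the 8 Hspa1a-high cells *Hspa12a* was at -1.89, *Dnajb11* at -1.12 and *Dnajc28* at -0.91, which is no longer called, while *Cryab* was called at -1.03.

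Pomc-high cells were higher than Pomc-lower cells in *Hspa2* by 2.07, *Hspa1a* by 1.60, *Hspa1b* by 1.54, *Dnajc21* by 1.23 and *Hspb8* by 1.18. The first 3 of these rested in part on the 8 Hspa1a-high cells, of which 5 are Pomc-high, and without them the differences were 1.08 for *Hspa2*, 0.75 for *Hspa1a* and 0.68 for *Hspa1b*. In cells 1 to 66, 67 to 98 and from 99 up the *Hspa2* difference was 2.45, 0.41 and 2.83, that of *Hspa1a* 0.57, 1.04 and 2.25, and that of *Dnajc21* 2.10, 1.32 and 0.63. Of the 13 immediate early genes, 8 were likewise called higher in Pomc-high than in Pomc-lower cells, and 0 without the 8 cells. *Bag2* and *Dnajc12* were called higher in Pomc-high than in Pomc-lower cells only without the 8 cells, by 1.04 and 1.00. *Hspa1a* had medians of 3.55 in Pomc-high, 2.65 in Agrp-high and 1.79 in Pomc-lower cells. The 4 members lower in Agrp-high than in Pomc-high cells were *Hspa2* (-1.69), *Hspa1a* (-1.64), *Hspa1b* (-1.51) and *Dnajc21* (-1.39), and only *Dnajc21* was still called without those cells, at -1.55. Within cells 67 to 98, which hold 5 Agrp-high cells, *Hspa2* and *Hspa1a* had the other sign, at 3.49 and 0.71, while *Dnajc21* was at -1.27, -2.51 and -1.72 in the 3 ranges. *Dnajc21*, a J-domain gene of ribosome assembly, was at 5.95 ± 1.99 in Pomc-high, 4.72 ± 2.24 in Pomc-lower and 4.56 ± 1.82 in Agrp-high cells.

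Of the heat-inducible list, *Hspb8* and *Bag3* were higher in Agrp-high than in Pomc-high cells, *Hspa1a* and *Hspa1b* lower, and the other 8 differed by less than 1. None of the 8 ER members was called between Agrp-high cells and either other set, and their differences from Pomc-high cells ran from -0.70 for *Dnajc1* to 0.34 for *Hspa13*. *Hspa5* was lower by -0.48 and *Hsp90b1* by -0.35. None of the 18 constant cytosolic members was called in any of the 3 comparisons.

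*Cryab*, the lens and glial small heat shock protein, had a pattern of its own. It was at 12.83 in Cell_106, 10.63 in Cell_61, 9.75 in Cell_14 and 7.65 in Cell_25, all Pomc-lower cells, and its median over all cells was -0.60. None of these 4 is a Hspa1a-high cell. Of these, Cell_106 had all 5 measured oligodendrocyte markers at or above 6 log2RPM with a summed level of 151851 RPM, and Cell_14, Cell_25 and Cell_61 had both measured oligodendrocyte precursor markers at that level with sums of 4367 to 4728 RPM. Among the 8 Hspa1a-high cells *Cryab* was between -0.91 and 7.0.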

How the data were processed

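RNA of 163 sorted MBH Pos cells was made into 1 library per cell with SMART-Seq v4 and Nextera XT kits. Per the submitters' processing notes, CASAVA 1.7, TopHat2 2.0.11 (build GRCm38), Cufflinks 2.2.1, edgeR and limma were used. The authors deposited normalized log2 values (log2RPM) for 12187 genes, which were not normalized again. The study's methods state that counts were batch corrected with edgeR and limma, without naming the batches. The deposited values share 1 floor and their low values fall on whole reads, which a shift per gene and batch would not leave. They are therefore read here as not batch corrected. Sets were uneven over cell numbers, with 32 of the 48 Agrp-high cells in cells 1 to 66. Linear RPM was 2 to the power of the value. Whole reads were worked out from the spacing of the low values, of which 99.3% lay within 0.1 of a whole number (1 to 20 reads), and recovery was tested on simulated data. Depth was 1.46 to 41.9 M reads, so detection is least certain in the shallowest cells.

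Sets of cells were described by means, SDs and shares of cells at 5 RPM or more with Clopper-Pearson 95% intervals, without tests. Named genes were the measured heat-inducible, ER, mitochondrial and Cct members, the 6 largest and smallest SDs, the 6 largest differences in each direction, variable members and the 6 most alike other genes. Values given for other members, pathway and immediate early genes were chosen after the values were seen, as was the *Hspa1a* limit of 8 log2RPM. Members and lists were chosen with earlier results of these data known. Promoter windows are from RefSeq, and shared windows of 50 bases were counted in the GENCODE M21 transcripts. Alternatives were other pseudocounts, detection and set limits, a filter at 10% of cells and cells with at least 5500 genes. Others were rescaling, thinning, ranges of cell numbers and leaving out the 4 cells with at least 3 markers of 1 non-neuronal list. Python 3.11.15, numpy 2.4.6, pandas 2.3.3, scipy 1.17.1 and matplotlib 3.10.9 were used.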

Additional observations from a re-analysis of the deposited data

How the results depend on the processing

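Among named members, all 24 differences of at least 1 log2 unit kept their direction under every alternative, with ranges of cell numbers averaged, and 10 of them stayed at or above 1 in all. Counts of called members depended on how the floor was handled. Apart from leaving out the 8 cells, the share of all genes called under each alternative is not given here. The counts below therefore do not show whether members moved more than other genes did. The 8 members higher in Agrp-high than in Pomc-high cells became 13 with a pseudocount of 0.1 RPM, 3 with 5 RPM and 5 over cells with at least 5500 genes. The 4 lower ones became 1 over those cells, 2 within ranges of cell numbers and 1 without the 8 Hspa1a-high cells. The 4 members higher in Agrp-high than in Pomc-lower cells became 8 and 2 with the lower and higher pseudocount and 11 within ranges. The 1 lower member became 2 with the lower pseudocount, over cells with at least 5500 genes, at a *Pomc* limit of 11 and within ranges. The 5 members higher in Pomc-high than in Pomc-lower cells became 3 over cells with at least 5500 genes, and the 3 lower ones became 5 and 1 with the pseudocounts and 1 at a *Pomc* limit of 11. At 1 RPM, 7 members in place of 15 were found in under 50% of cells. With a pseudocount of 5 RPM the median SD of the heat-inducible list was 1.43, beside 1.44 for the ER and 1.12 for the constant cytosolic list. Leaving out the 8 cells was chosen after seeing the data. No paired analysis was possible because all cells form 1 group.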
